A study of Mus musculus with 72 samples.

Results

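Dlk1 and 8 further imprinted genes that act on fetal growth were followed through mouse lungs and lung tumors after a tobacco carcinogen. The 9 genes, of 23930 in the count table, were taken by symbol: Dlk1, Meg3, Igf2, H19, Peg3, Mest, Cdkn1c, Plagl1 and Grb10. The set was chosen by the measured level of Dlk1, already seen to be high in some of these tumors, so its rise over lung is given as a description with no test. Every animal was Gprc5a-/-, lacking an airway receptor whose loss predisposes mice to lung adenocarcinoma, and no Gprc5a wild-type group was used here. Normal-appearing lung came from 10 unexposed animals at 8 weeks of age (baseline), and from animals given NNK, a nitrosamine of tobacco smoke: 10 at the end of exposure (16 weeks), 9 at 3 months after it (28 weeks) and 10 at 7 months after it (44 weeks). Age and exposure therefore cannot be told apart between these groups. Tumors dissected from the lungs gave 4 libraries from 3 animals at the end of exposure, 6 from 4 animals at 3 months and 23 from 9 animals at 7 months, and each of these 16 animals also gave its own lung. The libraries held 7459147 to 21822522 counts and 15644 to 18645 detected genes. Gprc5a had at most 4 counts in any library and 0 in 41 of the 72. The assay reads 1 amplicon for each gene, so levels, as CPM (counts scaled to the library's own total), are compared between libraries and not between genes.

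Imprinted genes are expressed mainly or only from the copy inherited from 1 parent, under the control of regions methylated in one germline. Many of them steer growth before birth and are silenced or lowered in most tissues afterwards. Dlk1, a membrane protein related to the Notch ligands that holds back differentiation in fetal tissues, is expressed from the paternal chromosome. Its neighbours Meg3, Rian and Mirg are noncoding RNAs expressed from the maternal chromosome and carry many microRNAs and small nucleolar RNAs. Igf2 (a fetal growth factor) and H19 (a noncoding RNA) form another such pair on another chromosome, where Cdkn1c, an inhibitor of cyclin-dependent kinases, also lies.

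The start regions of Dlk1 and Meg3 are shown first because these neighbours carry the pattern described below. Both are RefSeq windows of 300 bases of GRCm38.p6, plus strand, reaching from 250 bases before the annotated start to 50 after it, at chr12:109452573-109452872 for Dlk1 and chr12:109540746-109541045 for Meg3. Capitals mark matches, on either strand, to the TATA box (TATAAA), the CCAAT box (CCAAT), the GC box (GGGCGG) and the cAMP response element (TGACGTCA).
Dlk1: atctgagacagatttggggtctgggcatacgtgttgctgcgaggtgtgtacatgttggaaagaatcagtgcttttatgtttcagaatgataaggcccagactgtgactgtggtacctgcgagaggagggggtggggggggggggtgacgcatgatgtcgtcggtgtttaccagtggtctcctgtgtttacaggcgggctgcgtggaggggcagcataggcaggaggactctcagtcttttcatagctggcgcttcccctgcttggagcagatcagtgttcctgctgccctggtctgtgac
Meg3: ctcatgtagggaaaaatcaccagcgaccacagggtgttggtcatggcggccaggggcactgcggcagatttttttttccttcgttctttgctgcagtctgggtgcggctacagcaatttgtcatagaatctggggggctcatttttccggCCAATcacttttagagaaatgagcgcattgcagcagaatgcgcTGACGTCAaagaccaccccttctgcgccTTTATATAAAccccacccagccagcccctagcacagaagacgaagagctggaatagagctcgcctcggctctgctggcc
The Dlk1 window held none of the 4 motifs and 9 CpG dinucleotides. The Meg3 window held the CCAAT box at position -100 from the start, the cAMP response element at -57 and the TATA box at -25, with an overlapping TATA box on the other strand at -29, and 13 CpG dinucleotides. Of 32851 RefSeq start windows of that length, 13.6% held the TATA box, 37.4% the CCAAT box, 35.7% the GC box and 1.79% the cAMP response element. The Peg3 window also held the cAMP response element, at -178. A match is a description of the letters and not of a bound site.

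The noncoding RNAs beside Dlk1 are also hosts of microRNAs, which this assay did not measure. Between Dlk1 and Dio3, RefSeq lists 114 mature microRNAs from 61 genes, of which 18 share a seed with another (9 seeds in all). One is shown for each noncoding host described below, and a pair with a shared seed for Mirg, with the seed (bases 2 to 8) in capitals.
mmu-miR-770-5p, in Meg3: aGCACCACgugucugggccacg
mmu-miR-433-3p, in 6430411K18Rik: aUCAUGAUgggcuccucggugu
mmu-miR-370-3p, in Rian: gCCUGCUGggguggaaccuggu
mmu-miR-453, in Mirg: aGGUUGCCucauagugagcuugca
mmu-miR-496a-5p, in Mirg: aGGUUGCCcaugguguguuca
Mirg holds 19 of these mature microRNAs, Rian 6, Meg3 3 and 6430411K18Rik 2, and 29 lie within the range annotated to Rtl1.

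Dlk1 was low in the lungs, at most 6.73 CPM, and 17 of the 33 tumors exceeded the highest lung. In baseline lungs its lowest, median and highest levels were 0.00, 0.175 and 0.504 CPM. At the end of exposure these were 0.00, 0.154 and 2.72 CPM, at 3 months 0.00, 0.172 and 2.06 CPM, and at 7 months 0.00, 0.435 and 6.73 CPM. The 4 tumors at the end of exposure held 0.00, 351, 438 and 0.730 CPM. The 6 tumors at 3 months held 0.139, 0.768, 0.824, 88.8, 285 and 4483 CPM. The 23 tumors at 7 months ran from 0.00 to 1314 CPM, with a median of 6.90 CPM. The tumors ran from within the range of the lungs to far above it. The 17 above all 39 lungs held 6.90 to 4483 CPM, and were 2 of 4 at the end of exposure, 3 of 6 at 3 months and 12 of 23 at 7 months. The 7-month tumors closest to that limit held 6.90 CPM just above it and 1.57 CPM just below it. In a whole-tissue library a higher level from more cells cannot be told apart from more RNA per cell.

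**Figure D1:**
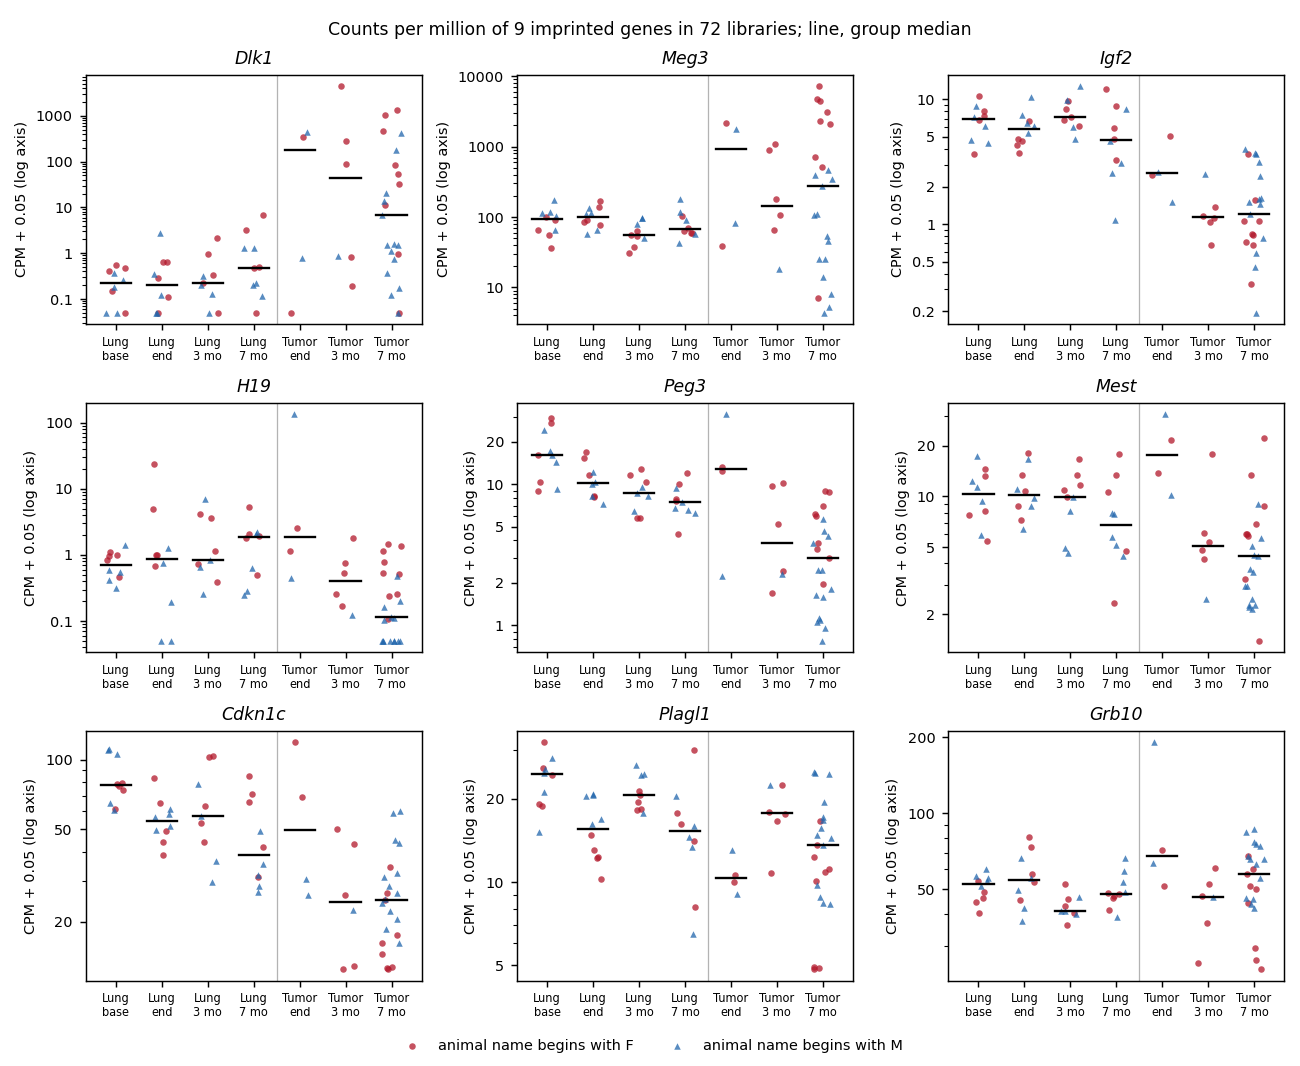
Levels of the 9 genes in 72 libraries, as CPM plus 0.05 on log axes, by tissue and time; each point is 1 library, coloured by the first letter of the animal's name, and the line is the group median. Dlk1 and Meg3 reach 4483 and 7290 CPM in tumors, whereas Igf2, Peg3 and Cdkn1c lie mostly at or below the lungs.

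Tumors of one animal differed widely in Dlk1. Of the 10 animals with several tumors, 8 had at least 1 tumor above all 39 lungs and at least 1 within their range, 1 had none above and 1 had every tumor above. The 7 tumors of animal M7035 ran from 0.00 to 180 CPM, with a median of 1.07 CPM. The 3 tumors of M7037 held 1.43, 13.6 and 415 CPM, and the 3 of F7020 held 54.0, 83.3 and 1314 CPM. The 2 tumors of F1768 held 0.00 and 473 CPM, and the 2 of F2016 held 0.00 and 351 CPM. With each animal's tumors summed, the tumor level exceeded the animal's own lung in 15 of 16 animals, the exception being M7033 (0.0995 CPM in tumor and 0.169 CPM in lung). The fitted log2 difference between tumors and own lung was 6.43 ± 1.10 (SE, 9 animals) at 7 months and 8.71 ± 1.92 (SE, 4 animals) at 3 months.

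Meg3, a noncoding RNA transcribed from the maternal copy of the Dlk1 region, was well expressed in every lung and moved both up and down in tumors. Lungs ran from 36.6 to 177 CPM at baseline (median 95.3), 57.3 to 168 CPM at the end of exposure (median 101), 31.1 to 97.1 CPM at 3 months and 42.9 to 179 CPM at 7 months (median 66.7). The 4 tumors at the end of exposure held 38.7, 2136, 1769 and 82.3 CPM. The 6 tumors at 3 months held 18.1, 65.7, 107, 180, 898 and 1106 CPM. The 23 tumors at 7 months ran from 4.32 to 7290 CPM, with a median of 277 CPM. In all, 17 of 33 tumors lay above every lung and 8 lay below every lung, so that the tumors spread to both sides of the lungs. In the fit on 16 animals the log2 difference from own lung was 3.09 ± 1.25 (SE, 9 animals) at 7 months, which missed the threshold of 0.05 (edgeR quasi-likelihood test, Benjamini-Hochberg adjusted p = 0.0617). It was 2.74 ± 1.61 at 3 months (edgeR adjusted p = 0.233) and 3.13 ± 1.82 at the end of exposure (edgeR adjusted p = 0.342). The 7-month value depended on the tool and the animals: DESeq2 gave an adjusted p of 0.0003 and limma-voom 0.0167, and edgeR passed without M7033, M7037 or M7046 (adjusted p = 0.0194, 0.0375 and 0.0248).

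Lesion by lesion, Dlk1 and Meg3 were mostly high together, with exceptions on both sides. Both lay above all 39 lungs in 13 of 33 tumors and neither in 12. Dlk1 alone did so in 4 tumors and Meg3 alone in 4. Tumor 5 at 7 months, from F7021, held 2348 CPM of Meg3 with 0.890 CPM of Dlk1. Tumor 4 at 3 months, from F7016, held 285 CPM of Dlk1 with 107 CPM of Meg3, which is within the lungs. Both genes were low in 1 tumor of F1768 (0.00 CPM of Dlk1 and 7.04 CPM of Meg3), whereas its companion held 473 and 4700 CPM. Over the 23 tumors at 7 months, Spearman's rho of the pair was 0.744, given as a description since tumors of one animal are not independent.

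**Figure D2:**
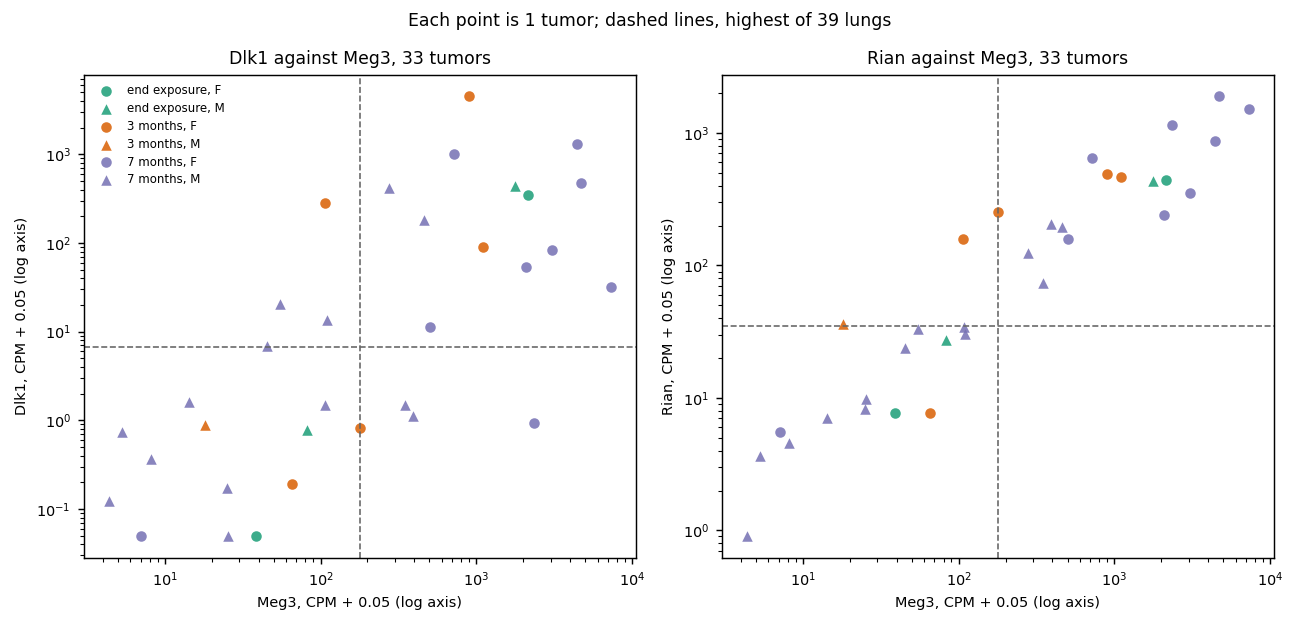
Dlk1 (left) and Rian (right) against Meg3 in each of 33 tumors, as CPM plus 0.05 on log axes, coloured by time and shaped by the first letter of the animal's name; dashed lines mark the highest of 39 lungs. For Dlk1 13 tumors lie above both lines and 4 lie above each line alone, whereas Rian and Meg3 lie close to one diagonal, with 17 tumors above both lines.

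Over the tumors at 7 months Rian, 6430411K18Rik, Rtl1 and Mirg had levels ordered much like those of Meg3, and Dio3 and Dio3os did not. The genes described here were chosen after the values were seen: Rtl1, a retrotransposon-derived gene needed in the placenta and expressed from the paternal chromosome, the noncoding 6430411K18Rik, Rian and Mirg, Dio3, which inactivates thyroid hormone, and Dio3os, the noncoding RNA opposite it. Rian ran from 6.99 to 34.7 CPM over the lungs and from 0.863 to 1885 CPM over the tumors at 7 months. All 17 tumors with Meg3 above every lung had Rian above every lung too, and 2 more tumors had Rian alone. The same count was 17 for Rtl1, with 1 tumor of Rtl1 alone, and 16 for Mirg, with 1 tumor of each alone. Over the 23 tumors at 7 months, the 4 genes of 13129 most like Meg3 by Spearman's rho were Rian (0.983), 6430411K18Rik (0.964), Rtl1 (0.932) and Mirg (0.917), while Dlk1 ranked 44. For Dio3os the rho was 0.075 (rank 6246) and for Dio3 -0.233 (rank 9284).

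At 7 months Rian exceeded own lung by 4.36 ± 0.97 on the log2 scale (SE, 9 animals; edgeR adjusted p = 0.0028). Rtl1 exceeded it by 4.05 ± 0.78 (edgeR adjusted p = 0.0009), with few counts in lung. Rtl1 overlaps antisense transcripts of the region, and since no source used here says whether counting used strand, its value is uncertain. Mirg, at most 0.672 CPM in any lung, exceeded own lung by 3.77 ± 1.10 (edgeR adjusted p = 0.0126). With so few lung counts, Mirg could be tested mainly through the tumors where it is high. 6430411K18Rik exceeded own lung by 3.39 ± 0.77 (edgeR adjusted p = 0.0028). Dio3, at the far end of the domain, exceeded it by 1.61 ± 0.32 (edgeR adjusted p = 0.0012). Among the genes flanking the domain, those named next differed in sign. Begain, the gene before Dlk1, fell by 2.16 ± 0.50 (edgeR adjusted p = 0.0033). Wdr25, before Begain, fell by 0.66 ± 0.20 (edgeR adjusted p = 0.0167). Ppp2r5c, after Dio3, rose by 0.51 ± 0.16 (edgeR adjusted p = 0.0166). Yy1, Slc25a29, Slc25a47, Wars, Dync1h1, 1700001K19Rik and Wdr20 also flank the domain, and their differences are not given here. In this comparison 37.8% of 15457 genes were called in either direction. The calls beside the domain therefore do not mark a boundary by themselves. At 3 months Rian rose by 4.27 ± 1.25 (edgeR adjusted p = 0.0274), 6430411K18Rik by 3.83 ± 1.16 (edgeR adjusted p = 0.0304) and Dio3 by 1.92 ± 0.48 (edgeR adjusted p = 0.0130). Rtl1 (3.25 ± 1.13, edgeR adjusted p = 0.0509) and Mirg (3.00 ± 1.43, edgeR adjusted p = 0.141) did not pass at that time. None of the 5 passed at the end of exposure (edgeR adjusted p = 0.0955 to 0.300).

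**Figure D3:**
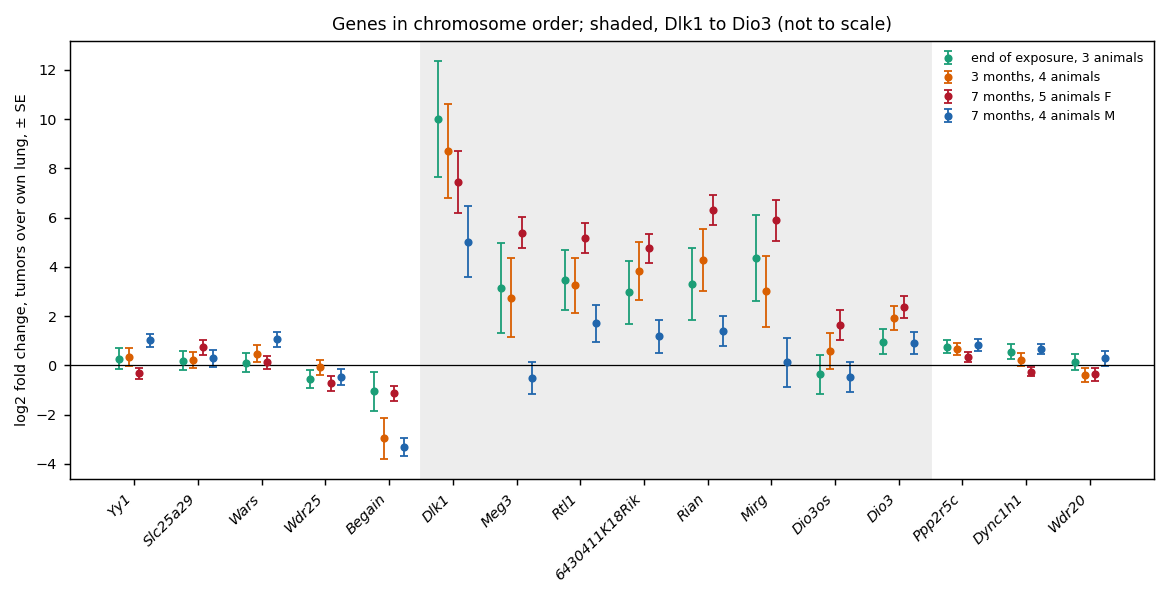
Log2 difference between tumors and own lung (points, with SE bars) for genes in chromosome order, with Dlk1 to Dio3 shaded, at the end of exposure (3 animals), at 3 months (4) and at 7 months separately for 5 animals whose names begin with F and 4 with M. At 7 months Meg3 lies at 5.39 in F and -0.52 in M, and Begain, the gene before Dlk1, lies below 0 in every set.

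With all animals included, none of the 8 members other than Dlk1 was called higher in tumors by edgeR, Meg3 included. At 7 months, of the 8 members other than Dlk1, 3 were called, all of them lower, against 37.8% of 15457 genes called in either direction and 19.8% called lower. The median log2 difference was -0.61 over these 8 and 0.01 over all genes tested.

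Igf2, the fetal growth factor, was lower in tumors. Lungs ran from 1.02 to 12.8 CPM over all times. Tumors at the end of exposure held 5.07, 2.43, 2.58 and 1.46 CPM, tumors at 3 months ran from 0.628 to 2.47 CPM (median 1.08) and tumors at 7 months from 0.144 to 3.93 CPM (median 1.15). No tumor exceeded the lungs and 13 of 33 lay below all of them. Igf2 fell by 1.72 ± 0.38 on the log2 scale at 7 months (SE, 9 animals; edgeR adjusted p = 0.0023), with the tumor lower in 8 of the 9 animals. It fell by 2.46 ± 0.55 at 3 months (4 animals; edgeR adjusted p = 0.0077), a call lost without F7016 (edgeR adjusted p = 0.0547). The value at the end of exposure was -1.24 ± 0.62 (3 animals; edgeR adjusted p = 0.250).

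H19, the noncoding partner of Igf2, had few counts. It ran from 0.00 to 23.4 CPM in lungs and from 0.00 to 1.40 CPM in tumors at 7 months, where 16 of 23 held 3 counts or fewer. It fell by 2.32 ± 0.87 at 7 months (SE, 9 animals; edgeR adjusted p = 0.0453), a call that ended in limma-voom (adjusted p = 0.128), without the low-count filter (edgeR adjusted p = 0.0872) and on leaving out any 1 of 5 animals. A single tumor at the end of exposure, from M2026, stood apart at 134 CPM, and it also held the highest Grb10 (191 CPM), Peg3 (31.4 CPM) and Mest (30.7 CPM) of all 33 tumors, with 0.730 CPM of Dlk1.

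Cdkn1c, which restrains the cell cycle, was lower in most tumors. Lungs ran from 26.7 to 111 CPM, tumors at the end of exposure held 119, 69.0, 30.5 and 26.0 CPM, tumors at 3 months ran from 12.5 to 50.2 CPM and tumors at 7 months from 12.5 to 60.1 CPM. In all, 20 of 33 tumors lay below every lung and 1 above. Cdkn1c fell by 0.79 ± 0.25 at 7 months (SE, 9 animals; edgeR adjusted p = 0.0188), but not in every animal. With tumors summed, it was higher in tumor than in own lung in M7035 (37.9 and 31.8 CPM) and M7046 (35.9 and 26.7 CPM). With a small constant added to each level, the log2 difference ran from -2.19 to -1.25 over animals whose names begin with F. Over those beginning with M it ran from -1.02 to 0.42, a comparison made after the values were seen. In the edgeR comparison by letter given below, Cdkn1c was not called, whereas 13.1% of 14861 genes were. Cdkn1c fell by 1.08 ± 0.37 at 3 months (4 animals; edgeR adjusted p = 0.0465), a call lost on leaving out any 1 of the 4 animals.

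Peg3, a zinc finger protein expressed from the paternal copy, lay below every lung in 20 of 33 tumors. Its level ran from 4.36 to 29.7 CPM in lungs and from 0.723 to 8.90 CPM in tumors at 7 months. The log2 difference at 7 months was -0.91 ± 0.36 (SE, 9 animals) and missed the threshold (edgeR adjusted p = 0.0596). DESeq2 (adjusted p = 0.0162) and limma-voom (adjusted p = 0.0488) passed it. Mest, an imprinted hydrolase-like gene, ran from 1.34 to 22.2 CPM in tumors at 7 months, with a log2 difference of -0.44 ± 0.32 (edgeR adjusted p = 0.303). Plagl1, a zinc finger regulator of other imprinted genes, had a log2 difference of -0.09 ± 0.23, whose sign changed with the animals left out. Grb10, an adaptor that dampens insulin and IGF signalling, had a log2 difference of 0.37 ± 0.18 (edgeR adjusted p = 0.115) and was higher in tumor in 11 of 16 animals over all times. Without F1768 it passed (0.50, edgeR adjusted p = 0.0295).

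**Figure D4:**
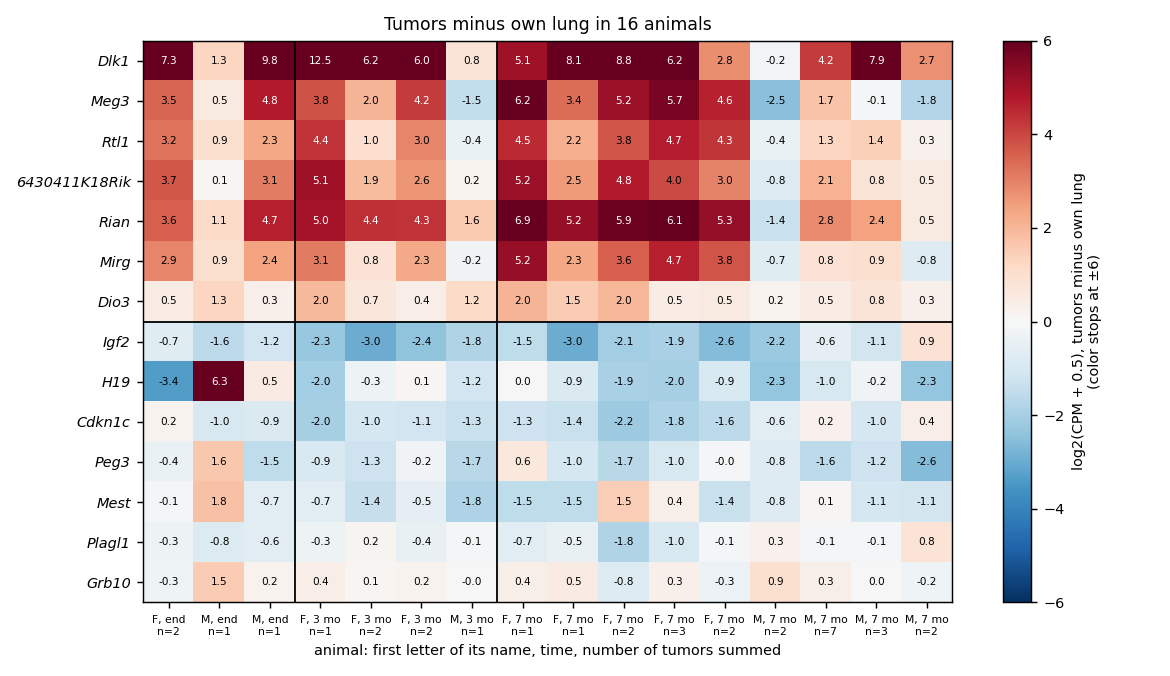
Difference of log2(CPM + 0.5) between each animal's summed tumors and its own lung for the 9 members and 5 further genes of the Dlk1 domain, in 16 animals ordered by time, with the number of tumors summed; the color scale stops at 6 in either direction. Dlk1 is higher in tumor in 15 of 16 animals, Meg3 in 12, and Igf2 is lower in 15.

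At 3 months 2 of the 8 members were called, Igf2 and Cdkn1c, both lower, against 19.7% of 15457 genes called in either direction and 10.2% called lower. At the end of exposure 0 of 8 were called by edgeR, DESeq2 or limma-voom and 0 had an unadjusted edgeR p under 0.05, against 4.61% of genes called. The tumor effect at 7 months did not differ by edgeR from that at the earlier times for any gene (0 of 15457, with 829 at an unadjusted p under 0.05 and 6 called by DESeq2). Across the 9 animals with 7-month tumors, the level of Dlk1 in the summed tumors, as log2(CPM + 0.5), was set against that of each of the 8 others. Own lung was not subtracted, and none passed the threshold after adjustment over the 8 relations. For Meg3, Pearson's r was 0.57 (exact permutation p = 0.109, adjusted 0.435) and Spearman's rho 0.52 (exact permutation p = 0.162, adjusted 0.259). Without the 2 animals farthest from the median, r was 0.33. Of these animals, 5 have names beginning with F and 4 with M, and their summed tumor levels of Meg3 did not overlap. Each set was too small for an r of its own. For Plagl1, Pearson's r was -0.60 (exact permutation p = 0.0890, adjusted 0.435) and Spearman's rho -0.67 (exact permutation adjusted p = 0.259). Without the 2 animals farthest from the median, r was -0.32.

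The genes most like Dlk1 over the 23 tumors at 7 months included the domain RNA 6430411K18Rik, Meg3 and genes of unrelated function. By Spearman's rho among 13129 genes, those outside the members were Slc25a35 (0.789), 6430411K18Rik (0.767), Nek4 (0.759), Cd177 (0.746) and Muc20 (0.725). The other members ranked far lower, with rho of 0.227 for Peg3, 0.151 for Mest, 0.011 for Igf2, -0.092 for Cdkn1c, -0.154 for Plagl1 and -0.348 for Grb10. These libraries share animals, and rho is a description.

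The difference of Meg3 between tumor and own lung differed between animals whose names begin with F and those whose names begin with M. The labels do not define these letters, and the comparison was added after the values were seen. All 36 libraries of F animals held at least 692 CPM of Xist, the RNA that coats the inactive X chromosome, and all 36 of M animals at most 1.26 CPM. Ddx3y, on the Y chromosome, was at most 0.0751 CPM in F and at least 68.3 CPM in M. By these genes the F libraries read as female and the M libraries as male. The 9 tumors of 5 F animals at 7 months ran from 7.04 to 7290 CPM of Meg3 (median 2348), and the 14 of 4 M animals from 4.32 to 462 CPM (median 49.8). Meg3 lay above every lung in 8 of 9 F tumors and 4 of 14 M tumors.

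Against own lung, Meg3 was higher in tumor in 5 of 5 F animals, by 3.36 to 6.16 on the scale of log2(CPM + 0.5), and in 1 of 4 M animals, from -2.50 to 1.72. The ranges did not overlap. The tumor effect in F exceeded that in M by 5.91 ± 0.89 on the log2 scale (SE, 5 and 4 animals; edgeR adjusted p = 0.0078; 5.29 to 6.67 on leaving out each animal), and 1 of 8 members was called, against 13.1% of 14861 genes. The effect was 5.39 ± 0.63 in F (edgeR adjusted p = 0.0007) and -0.52 ± 0.65 in M (edgeR adjusted p = 0.557). The neighbours, chosen after the values were seen and ordered much like Meg3 over these tumors, differed likewise. Rian differed by 4.92 (edgeR adjusted p = 0.0089), Mirg by 5.77 (edgeR adjusted p = 0.0176), 6430411K18Rik by 3.57 (edgeR adjusted p = 0.0247) and Rtl1 by 3.47 (edgeR adjusted p = 0.0423). These p-values are not independent of the Meg3 result, and Mirg and Rtl1 had few counts in lung. For Dlk1 the difference was 2.42 ± 1.83 (SE), given with no test since the set was chosen by its level and it had few counts in lung. Dlk1 lay above every lung in 7 of 9 F tumors and 5 of 14 M tumors. In the lungs Meg3 was lower in F than in M, by 0.53 on the log2 scale (edgeR adjusted p = 0.0253, with 18.4% of 14907 genes called). Both tumors titled ADC, a tag the labels do not define, came from M animals, and M animals gave 2 to 7 tumors each against 1 to 3 in F. Their part in the difference was not tested beyond leaving out the ADC tumors. At the end of exposure F tumors held 38.7 and 2136 CPM of Meg3 and M tumors 82.3 and 1769 CPM, so that letters did not separate them there. At 3 months the 5 F tumors held 65.7 to 1106 CPM and the only M tumor 18.1 CPM, too few to compare.

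**Figure D5:**
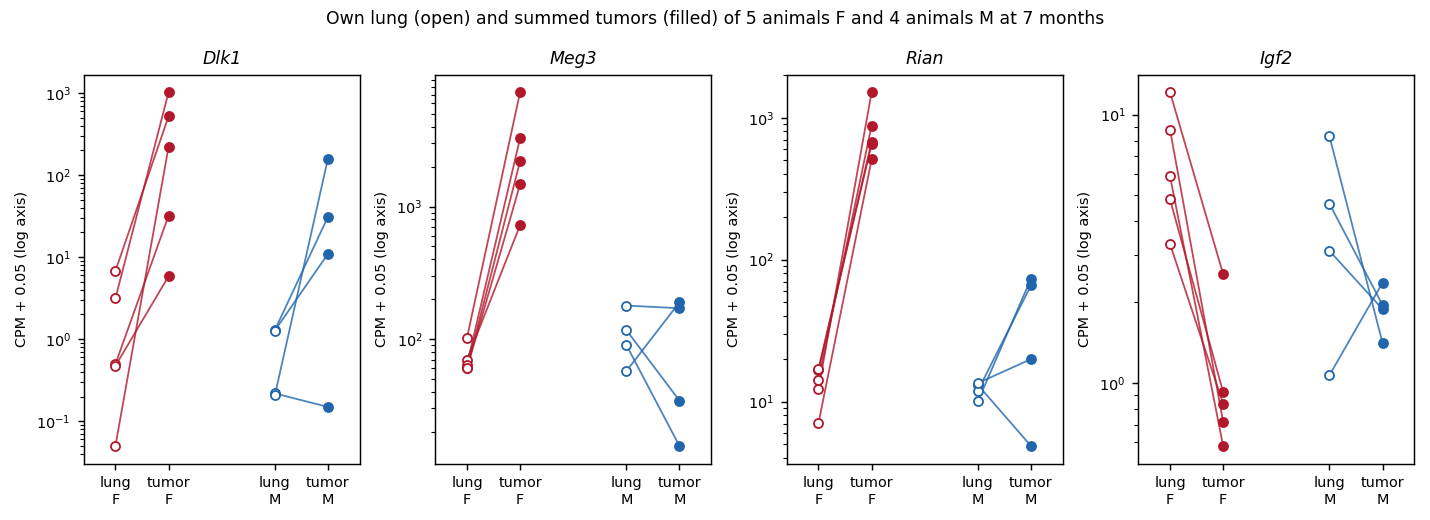
Own lung (open) and summed tumors (filled) of the 9 animals at 7 months, joined by lines, for Dlk1, Meg3, Rian and Igf2, as CPM plus 0.05 on log axes, by first letter of the animal's name. Meg3 is higher in tumor in 5 of 5 F animals and in 1 of 4 M animals, and Dlk1 in all but 1 M animal.

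In the lungs, 0 members were called higher by edgeR at any time after baseline, and 1 to 3 were lower. Dlk1 was too low to pass the filter, and 8 of 9 members were tested. At 7 months 3 of 8 were lower than at baseline, against 12.8% of 14907 genes called in either direction and 5.31% called lower. Peg3 fell from a median of 16.1 CPM (8.92 to 29.7) to 7.50 CPM (4.36 to 11.9), a log2 change of -1.08 ± 0.21 (SE, 10 against 10; edgeR adjusted p = 0.0007). Cdkn1c fell from a median of 77.7 to 38.7 CPM (log2 change of -0.80 ± 0.20, edgeR adjusted p = 0.0061) and Plagl1 from 24.5 to 15.2 CPM (log2 change of -0.56 ± 0.18, edgeR adjusted p = 0.0320, lost in 5 of 20 fits that left out 1 library). Rian also fell (log2 change of -0.57 ± 0.19, edgeR adjusted p = 0.0418). At 3 months 1 of 8, Peg3, was lower, by 0.99 on the log2 scale (edgeR adjusted p = 0.0071; 1.72% of genes called, 0.637% lower). At the end of exposure 2 of 8 were lower, Peg3 by 0.71 (edgeR adjusted p = 0.0416) and Plagl1 by 0.60 (edgeR adjusted p = 0.0438), against 4.11% of genes called and 1.61% called lower. Leaving out 1 library at a time kept both calls in 3 of 20 fits. From the end of exposure to 7 months 0 of 8 were called by edgeR, DESeq2 or limma-voom and 0 had an unadjusted edgeR p under 0.05, against 5.75% of genes called.

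Heart muscle genes were high in 5 lungs. Over 300 CPM of Myh6, a heart myosin, was found in 3 baseline lungs, 1 at the end of exposure and 1 at 3 months. Without these 5 libraries, Peg3 had a log2 change of -0.40 at the end of exposure (edgeR adjusted p = 0.375), -0.59 at 3 months (edgeR adjusted p = 0.210) and -0.71 at 7 months (edgeR adjusted p = 0.0256). Plagl1 at 7 months no longer passed (edgeR adjusted p = 0.0760) and neither did Rian (edgeR adjusted p = 0.312). Cdkn1c at 7 months still did (edgeR adjusted p = 0.0167).

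Other imprinted genes and related pathways moved in both directions in tumors at 7 months. Of 31 other imprinted genes tested, 12 were higher and 6 lower, with a median log2 difference of 0.33. Of all 15457 genes tested in that comparison, 37.8% were called, 2785 higher and 3058 lower, with a median of 0.01, and the counts of each list that follows for these tumors stand against that share. Phlda2, a placental growth inhibitor, rose by 1.75 ± 0.35 (edgeR adjusted p = 0.0012). Of 16 genes of the IGF axis, 7 were higher and 8 lower (median -0.63). Irs1, the insulin receptor substrate, rose by 1.64 ± 0.25 (edgeR adjusted p = 0.0002). Of the binding proteins of the IGF ligands, Igfbp3 rose by 1.96 ± 0.35 (edgeR adjusted p = 0.0005) and Igfbp6 fell by 2.09 ± 0.35 (edgeR adjusted p = 0.0004). Of 8 oncofetal genes tested, 0 were higher and 4 lower by edgeR, among them Igf2bp1 (-1.86 ± 0.54), Igf2bp2 (-1.26 ± 0.29) and Plag1 (-1.17 ± 0.38).

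Of 22 Notch pathway genes, 2 were higher and 5 lower, against 37.8% of all genes called in either direction, with Maml1, a coactivator, higher by 0.71 ± 0.14 and the receptor Notch4 lower by 0.93 ± 0.18. Of 12 genes that maintain imprints, 4 were higher and 1 lower, against the same 37.8%. Trim28, a corepressor that protects imprints in the embryo, rose by 0.61 ± 0.11 (edgeR adjusted p = 0.0007), Uhrf1 by 0.90 ± 0.27 (edgeR adjusted p = 0.0130) and Tet1 fell by 0.93 ± 0.25 (edgeR adjusted p = 0.0084). Of 14 proliferation genes, 13 were higher (median 1.32), with Birc5 higher by 1.69 ± 0.24. The summed level of these genes had a Spearman's rho over the 23 tumors of -0.42 with Dlk1 and -0.67 with Meg3. Tumors of one animal are not independent and Meg3 differed between F and M animals, so rho is a description. At 7 months in the lungs, Zdbf2 fell by 2.26 ± 0.34 (edgeR adjusted p = 3.0e-05) and Phlda2 rose by 1.31 ± 0.24 (edgeR adjusted p = 0.0004), among 29 other imprinted genes of which 1 was higher and 4 lower, against 12.8% of 14907 genes called in either direction.

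Markers of other cells were also called in tumors at 7 months, where 37.8% of all genes were. Of 10 alveolar type 2 markers, 8 were higher and 0 lower by edgeR, markers of the cells that make surfactant. The neuroendocrine markers, of cells that can also express Dlk1, were lower in 9 of 10, and their summed level ran from 36.7 to 137 CPM in lungs at 7 months and from 1.87 to 141 CPM in tumors at 7 months. Lower too were 8 of 8 ciliated, 6 of 8 club, 6 of 7 mesothelial, 5 of 8 adipocyte, 4 of 8 endothelial, 7 of 7 cardiac and 7 of 7 skeletal muscle markers, while 3 of 9 leukocyte and 3 of 7 alveolar type 1 markers were higher. At the end of exposure 3 of the 10 neuroendocrine markers were at 0 in all 4 tumors. Of 11 fibroblast and smooth muscle markers, 7 were lower and 1 higher, with a summed level of 731 to 2772 CPM in lungs at 7 months and 266 to 1745 CPM in tumors. The summed level of neuroendocrine markers had a rho of 0.39 with Dlk1 and 0.52 with Meg3, that of fibroblast markers 0.39 and 0.43, and that of alveolar type 2 markers 0.09 and 0.16. These tumors share animals, and rho is a description. The part of these cells in the differences was not tested.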

How the data were processed

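RNA was extracted with miRNeasy and 10 ng of it went into Ion AmpliSeq Transcriptome Mouse libraries, run 8 to a chip on an Ion Proton, per the labels' protocols. The deposited values are raw counts per gene, while aligner, genome build and strand setting were not given in the sources used here. The count table had 74 columns, of which 2 matched no sample and were not used, and 27 gene names turned into dates were restored. Levels are CPM of each library's own total, computed here.

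Lung groups were fitted together (39 libraries, 14907 genes, 35 residual degrees of freedom). Tumor counts were summed per animal and set against the same animal's lung with the animal as a block (16 animals, 15457 genes, 13 residual degrees of freedom). Both used edgeR 4.0.16 (quasi-likelihood, TMM, filterByExpr with a minimum count of 10, Benjamini-Hochberg over all genes, threshold 0.05) in R 4.3.3, tested on simulated data. The pairs come from the same animal by name. Deviations from group means correlated over 0.1 in 11 of 16 pairs (-0.125 to 0.437, median 0.229). Alternatives were DESeq2 1.42.0, limma-voom (limma 3.58.1), RLE or total counts, no filter, no block, each tumor on its own, no ADC tumors, no lungs over 300 CPM of Myh6, only the groups compared, and leaving out each library or animal. Within groups, chi-square values per gene were 30.3 or more, so no library was taken for a duplicate.

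Members and lists were chosen with earlier results of these data known. The named genes were all 9 members, up to 3 genes of smallest p per list at 7 months, and the 5 genes outside the members most like Dlk1. The letter comparison and the genes around Dlk1 were added later. No source says whether animals of a group were independent litters, so p-values measure the spread between these animals, and precision is limited by their number and by depth.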

Additional observations from a re-analysis of the deposited data

Results flagged for a closer look

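Single libraries far from the rest of their group, by the gap to the nearest library, were found in 10 of 54 sets of a gene and a group of 4 to 10 libraries. The rule gives about 1 in 20 for normally distributed values. It was used on CPM without a log scale, and Dlk1 and H19 in lungs lie near the floor, so the count is a description. For Dlk1 the libraries set apart were lung replicate 5 at 3 months (2.06 CPM), lung replicate 1 at 7 months (6.73 CPM), lung replicate 8 at the end of exposure (2.72 CPM) and tumor replicate 1 at 3 months (4483 CPM). The lung replicate 1 at 7 months also stood apart for H19 (5.31 CPM), as did lung replicate 2 at the end of exposure (23.4 CPM), tumor replicate 3 at 3 months (1.78 CPM) and tumor replicate 4 at the end of exposure (134 CPM). That last tumor stood apart for Grb10 as well (191 CPM). For Mest it was tumor replicate 2 at 3 months (17.7 CPM). The tumor effect on Meg3 at 7 months differed between animals whose names begin with F and M by 5.91 on the log2 scale (SE 0.89, edgeR adjusted p = 0.0078).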

How the results depend on the processing

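The number of members called changed under the following settings. For lungs at the end of exposure the 2 calls became 0 with total counts alone, with no filter and without 5 lungs high in Myh6 (over 300 CPM), and ran from 0 to 2 on leaving out each library. For lungs at 3 months the 1 call became 0 without the Myh6 lungs, and for lungs at 7 months the count ran from 2 to 3 on leaving out each library. For 3-month tumors the 2 calls became 1 with no filter, limma-voom and no replicate block, and 0 to 1 on leaving out each animal. For 7-month tumors the 3 calls became 5 in DESeq2, and 2 to 4 on leaving out each animal. The difference by letter gave 2 calls in place of 1 with total counts, DESeq2, limma-voom and without ADC tumors, and 1 to 2 on leaving out each animal. Without the replicate block Meg3 at 7 months had a log2 difference of 4.41 (edgeR adjusted p = 0.0002). Plagl1 in 7-month tumors ran from -0.23 to 0.10 on leaving out each animal, and r of Dlk1 and Igf2 became 0.23 without the 2 farthest animals. Counts of genes called moved over 1.5 times for lungs at the end of exposure (612 to 349 without the Myh6 lungs, 1063 with only the groups compared), at 3 months (257 to 393 in DESeq2), at 7 months (1912 to 1160 and 1215) and between end of exposure and 7 months (857 to 426 with only the groups compared). They also moved for tumors at the end of exposure (713 to 375 with no filter, 1975 in DESeq2, 0 to 50 on leaving out each animal), at 3 months (3046 to 793 to 3341 on leaving out each animal), for the change from earlier times (0 to 6 in DESeq2) and by letter (1948 to 3517 in DESeq2, 694 to 2891 on leaving out each animal). The cause was not tested. Low counts limit Dlk1 and H19 in the lungs and H19 in tumors.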
